A study of Mus musculus with 9 samples.

Results

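The 33 genes described here are macrophage surface, phagocytic, Fc receptor, C-type lectin, lipid-associated and oxidase genes, chosen by symbol from the 35321 genes of one expression table. All 33 were found, and none was lost to the filter for testing, which asked for 1 FPKM or more in 3 libraries. FPKM scales fragments by the length used for each gene and by the mapped fragments of the library. The smallest length that fits the values was 4946 bases for Trem2 and 5790 for Fcgr2b. Their longest coding transcripts have 1088 and 3544 bases. For Fcgr1 and Fcgr4 both lengths were the same, at 2589 and 1256 bases. Levels of different genes can therefore be compared only as far as these lengths are alike in kind. The libraries are poly(A) RNA-seq of subcutaneous tumours formed by LLC, a Lewis lung carcinoma cell line, on the flank of C57BL/6 males that were 4 to 5 weeks old. From day 5 after injection of the cells the mice were given PBS as vehicle, or digoxin at a dose of 0.1 or 1 mg/kg, all intraperitoneally, and each group has 3 samples. Digoxin is a cardiac glycoside that blocks the Na,K-ATPase. All groups carry the same tumour line and no engineered allele is named. The labels give neither the number of doses nor the day of collection. Nor do they tie each sample to a mouse of its own, and the p-values below therefore reflect sample-to-sample spread that may be technical.

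Macrophages in a tumour take up dying cells, lipoproteins and antibody-coated targets, and several of these genes encode the receptors for that uptake. Activating Fc gamma receptors bind IgG and signal through the ITAM motif of the Fc receptor gamma chain and the kinase SYK, while the inhibitory receptor FcgRIIb carries an ITIM motif and opposes them. C-type lectins such as Dectin-1, Dectin-2 and Mincle use the same kinase route to sense microbial or dead-cell ligands, and the NADPH oxidase makes the superoxide that follows engulfment. In RNA from whole tumours, fewer cells of a type and less RNA per cell cannot be told apart, and the cells that made each RNA were not separated.

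The defining macrophage genes were present in every library. Across the 9 libraries Lyz2 was 977 to 1976 FPKM, Cd68 98.4 to 212 FPKM and Csf1r 30.2 to 55 FPKM. The FPKM denominators were 40517062 to 51810956 fragments and split by treatment. Vehicle libraries had 48649867, 50033250 and 51810956 fragments. Those of the low dose had 42870997, 42940131 and 43319883, and those of the high dose 42252370, 40571927 and 40517062. Every digoxin library was thus below every vehicle library, so depth and treatment cannot be separated, and the part of depth in the calls was not tested. Marco in the vehicle samples was the most thinly read gene, with 36, 12 and 23 reads at a transcript length of 1925 bases. Sample 2 at 0.1 mg/kg and sample 1 at 1 mg/kg lay between the groups in earlier results of these data. The former had the lowest value of its group for 26 of the 33 genes. The latter had the highest value of its group for 15 genes and the lowest for 16.

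At 0.1 mg/kg, 20 of the 33 genes rose against vehicle and 0 fell (limma, adjusted p under 0.05). Of all 13687 tested genes 21.6% rose, 20.7% fell and 42.2% changed in either direction. At an unadjusted p under 0.05 there were 23 of 33 genes (51.9% of tested genes). The median log2 change of the 33 genes was 0.88, against 0.02 over all tested genes. The rises took in the 4 Fc gamma receptors and both ITAM adaptors, 4 of the 5 C-type lectins, 3 of the 5 scavenger and uptake genes, both oxidase genes and 4 of the 9 general macrophage genes. For 25 genes the 3 digoxin values lay above all 3 vehicle values, a pattern that 32.3% of tested genes showed, and for 0 they lay below (27.9%). The count of genes that rose was 12 without vehicle sample 3, 13 without 0.1 mg/kg sample 1, 13 without 0.1 mg/kg sample 3 and 13 with no filter on low values. Of all 13687 tested genes 2952 rose with every library, and 1844, 1929 and 1803 without each of those samples in turn. With no filter 2612 of 35321 genes rose. The 12 calls that held under every alternative were Cd68, Ms4a6c, Aif1, Fcgr1, Fcgr3, Fcgr4, Fcgr2b, Fcer1g, Tyrobp, Clec4n, Marco and Lgmn.

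At 1 mg/kg, 17 of the 33 genes rose and 3 fell. Of all tested genes 20.7% rose, 25.2% fell and 45.9% changed in either direction, and the median log2 change was 0.46 for the 33 genes and -0.04 for all tested genes. The genes that fell were Adgre1, which encodes the macrophage surface protein F4/80, Csf1r, the receptor for the macrophage growth factor CSF1, and Ms4a7, a membrane protein of tissue macrophages. For 19 genes the digoxin values lay above all vehicle values (25.2% of tested genes), and for 3 they lay below (33.1%). The number that rose was 8 without vehicle sample 3 and 11 without vehicle sample 2. Of all 13687 tested genes 1888 and 1935 rose in these fits, against 2833 with every library. Calls for Adgre1, Cd14, Ms4a7, Fcgr3, Fcgr4, Fcgr2b, Clec4d, Marco, Cd36 and Gpnmb held under all 18 alternatives.

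**Figure D1:**
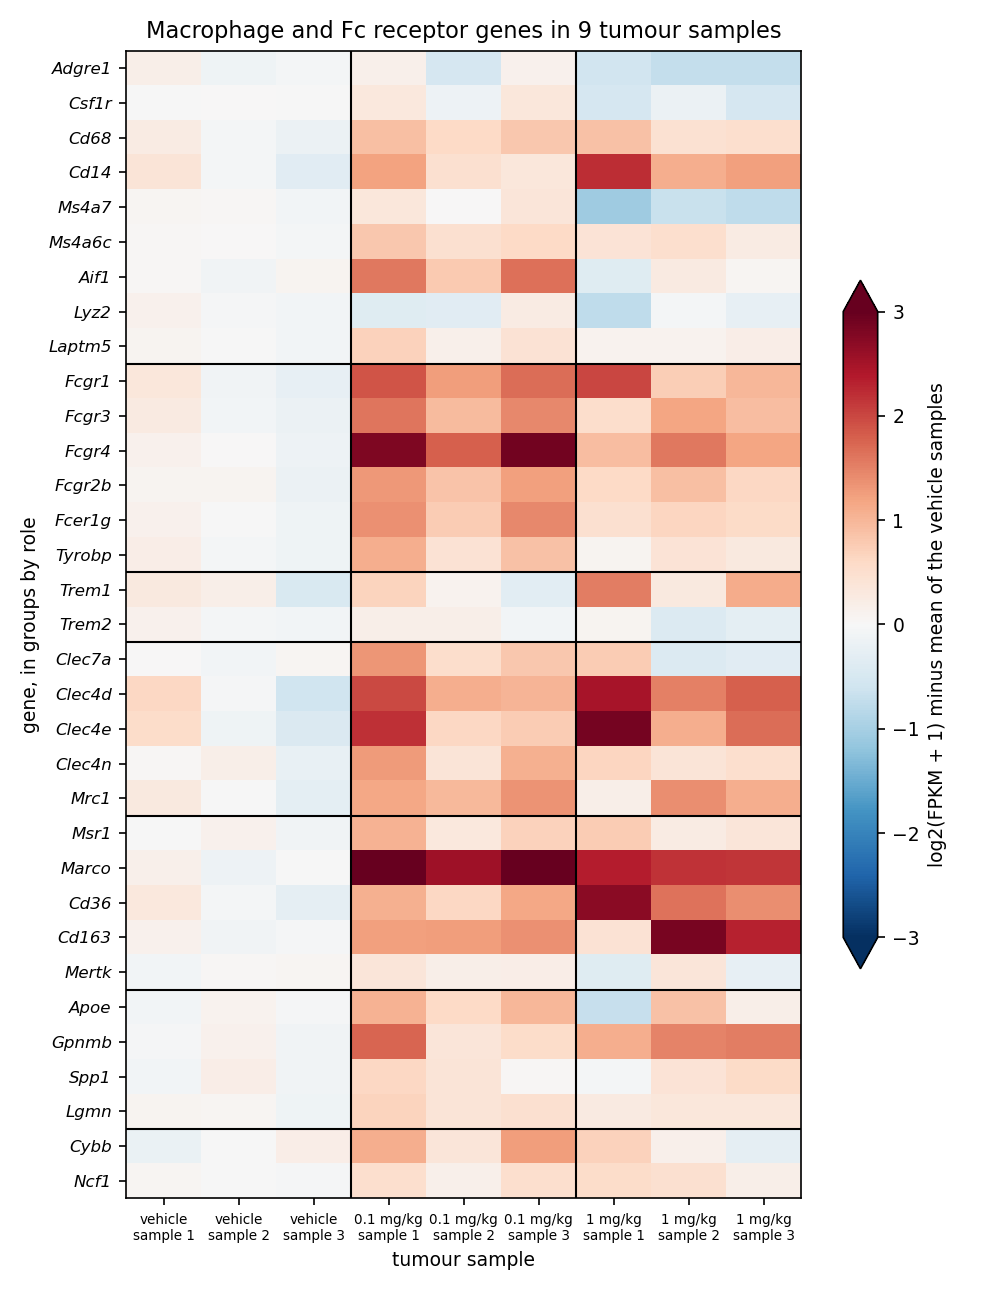
Each row is 1 of the 33 genes in groups by role and each column 1 tumour sample; colour is log2(FPKM + 1) minus the mean of the 3 vehicle samples. The 4 Fc gamma receptor rows are red in all digoxin samples, while Adgre1 and Ms4a7 are blue in the 1 mg/kg samples.

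**Figure D2:**
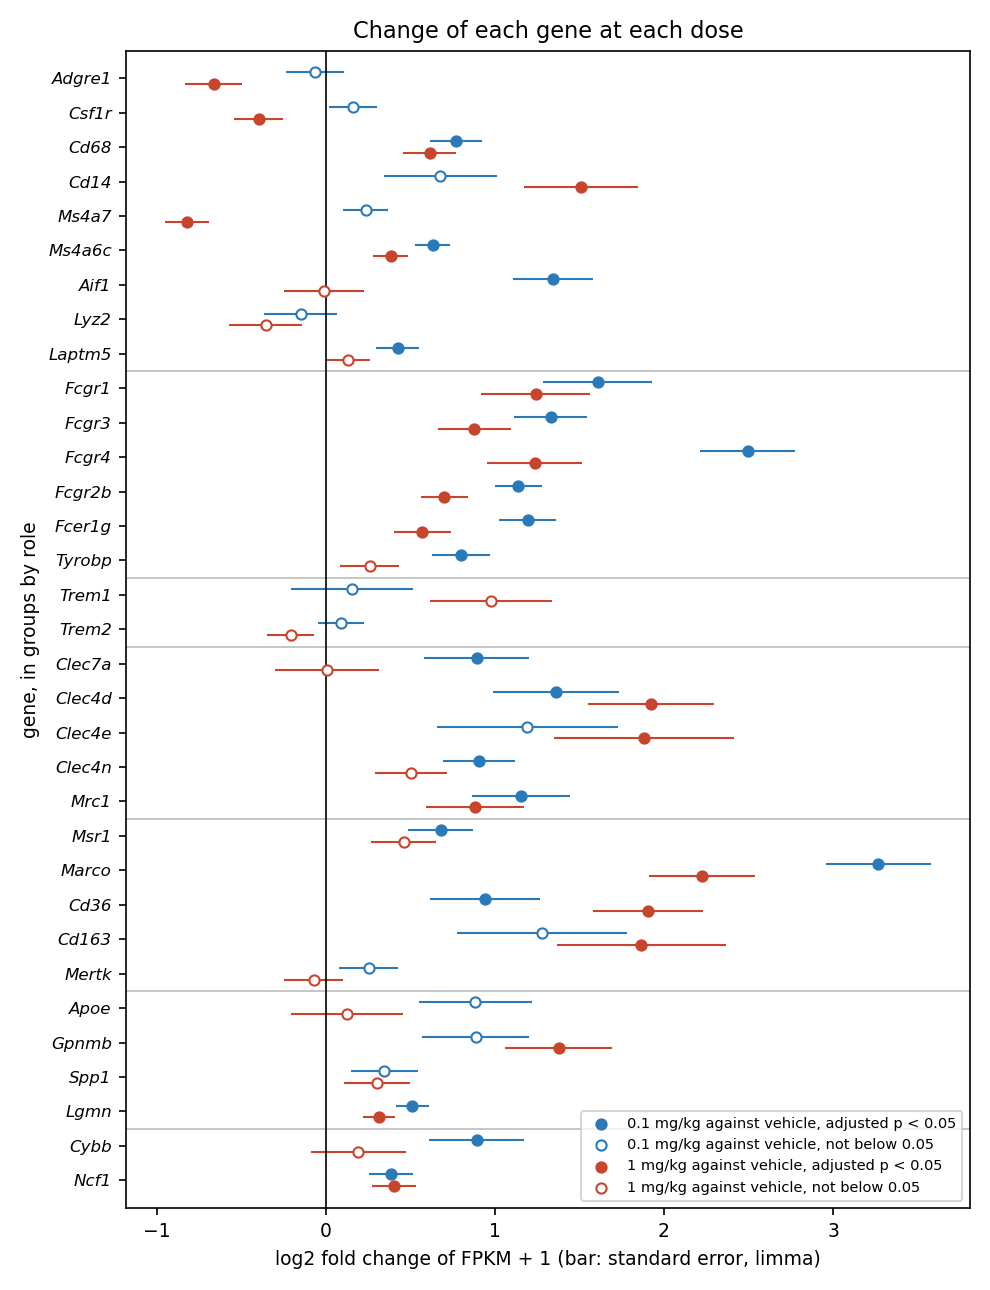
For each gene the log2 fold change against vehicle at 0.1 mg/kg (blue) and 1 mg/kg (red) is drawn with its standard error; filled points have an adjusted p under 0.05. Filled blue points number 20, all above 0, and filled red points number 20, of which 3 lie below 0.

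Among the general macrophage genes the direction differed from gene to gene. Adgre1 was 32.0, 25.9 and 27.1 FPKM in vehicle samples 1 to 3, 31.7, 19.8 and 31.1 FPKM at 0.1 mg/kg, and 18.5, 16.9 and 16.9 FPKM at 1 mg/kg. All 3 samples at 1 mg/kg lay below every other sample, and sample 2 at 0.1 mg/kg lay nearest to them. The log2 change was -0.07 ± 0.17 (SE, adjusted p = 0.775) at 0.1 mg/kg and -0.66 ± 0.17 (adjusted p = 0.0135) at 1 mg/kg.

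Ms4a7 was 17, 16.7 and 15.3 FPKM in vehicle, 20.8, 16.4 and 21.4 FPKM at 0.1 mg/kg and 7.31, 9.97 and 9.29 FPKM at 1 mg/kg. The 1 mg/kg values were again below all others. Its log2 change was 0.23 ± 0.13 (adjusted p = 0.175) and -0.82 ± 0.13 (adjusted p = 0.00208). Csf1r gave 43.1, 43.9 and 43.4 FPKM in vehicle, 54.1, 38.7 and 55.0 FPKM at 0.1 mg/kg and 30.3, 38.4 and 30.2 FPKM at 1 mg/kg. The fall at 1 mg/kg (-0.40 ± 0.14, adjusted p = 0.0498) stood at the threshold and was lost in 7 of the 9 leave-one-out fits, where the adjusted p reached 0.145.

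Aif1 encodes IBA1, a calcium-binding protein of macrophages. Its values were 15.9, 14.4 and 16.3 FPKM in vehicle, 48.6, 27.4 and 51.3 FPKM at 0.1 mg/kg and 11.9, 18.7 and 16.2 FPKM at 1 mg/kg. The 0.1 mg/kg samples were above all others, whereas the 1 mg/kg samples lay on both sides of the vehicle range. Aif1 rose at 0.1 mg/kg by 1.34 ± 0.24 (adjusted p = 0.00365), and the value at 1 mg/kg was -0.01 ± 0.24 (adjusted p = 0.968).

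Cd14, the lipopolysaccharide co-receptor, was 52.1, 38.3 and 31.3 FPKM in vehicle, 92.2, 55.9 and 50.8 FPKM at 0.1 mg/kg and 188, 85.5 and 94.0 FPKM at 1 mg/kg. Every 1 mg/kg value was above the vehicle range, and the low-dose range overlapped it. The change was 0.68 ± 0.34 (adjusted p = 0.133) at 0.1 mg/kg and 1.51 ± 0.34 (adjusted p = 0.00768) at 1 mg/kg. Cd68, a lysosomal membrane glycoprotein, rose at both doses, by 0.77 and 0.61 (adjusted p = 0.00601 and 0.0129), and Ms4a6c rose by 0.63 and 0.38 (adjusted p = 0.00287 and 0.0172). Without vehicle sample 3 both 1 mg/kg calls were lost, and that of Ms4a6c also without 1 mg/kg sample 2 (highest adjusted p 0.0534 for Cd68 and 0.0655 for Ms4a6c). Laptm5, a lysosomal membrane protein of blood cells, rose at 0.1 mg/kg (0.42, adjusted p = 0.0282), a call lost in 4 of 9 leave-one-out fits. Lyz2, which encodes lysozyme, changed by -0.15 and -0.36 without passing the test (adjusted p = 0.594 and 0.207). Of the 100-base stretches of its transcript 1.97% also occur in Lyz1, a near copy, which had 7.5 ± 0.473 FPKM in vehicle (SD, n = 3).

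All 4 Fc gamma receptor genes rose at both doses. Fcgr4, an activating receptor for IgG2a and IgG2b, was 17.4, 16.1 and 14.3 FPKM in vehicle, 117, 57.8 and 124 FPKM at 0.1 mg/kg and 31.1, 49.8 and 37.5 FPKM at 1 mg/kg. The 3 groups did not overlap, and the low dose was highest. Mean FPKM was 6.25 times the vehicle mean at 0.1 mg/kg and 2.48 times at 1 mg/kg. Its log2 change was 2.5 ± 0.28 (adjusted p = 0.000744) and 1.24 ± 0.28 (adjusted p = 0.00845).

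Fcgr1, the high-affinity IgG receptor, had vehicle values of 16.1, 11.7 and 10.5 FPKM, low-dose values of 49.6, 31.2 and 42.8 FPKM and high-dose values of 53.7, 21.5 and 26 FPKM. Each digoxin sample was above all vehicle samples, and sample 1 at 1 mg/kg stood well above the other two of its group. The change was 1.61 ± 0.32 (adjusted p = 0.0059) and 1.24 ± 0.32 (adjusted p = 0.0144). Without vehicle sample 3 the adjusted p at 1 mg/kg was 0.0551.

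Fcgr3, the low-affinity activating receptor, was 74.3, 58.9 and 54.3 FPKM in vehicle, 191, 120 and 170 FPKM at 0.1 mg/kg and 90.3, 142 and 118 FPKM at 1 mg/kg. Fcgr2b, the inhibitory receptor, was 28.3, 28.6 and 23.8 FPKM in vehicle, 67.8, 49.7 and 64.5 FPKM at 0.1 mg/kg and 40.8, 50.7 and 41.6 FPKM at 1 mg/kg. Both genes were higher in all digoxin samples than in any vehicle sample. Fcgr3 rose by 1.33 ± 0.21 and 0.88 ± 0.21 (adjusted p = 0.00263 and 0.0112), and Fcgr2b by 1.14 ± 0.14 and 0.70 ± 0.14 (adjusted p = 0.000953 and 0.00481). The 2 transcripts share 44 stretches of 100 bases, which is 3.53% of those in Fcgr3, so reads from that part could be given to either gene.

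Fcer1g encodes the common gamma chain that carries the ITAM for Fcgr1, Fcgr3 and Fcgr4. Its values were 140, 127 and 116 FPKM in vehicle, 330, 217 and 349 FPKM at 0.1 mg/kg and 177, 201 and 191 FPKM at 1 mg/kg. The 3 groups were separate. Fcer1g rose by 1.19 ± 0.17 (adjusted p = 0.00163) and 0.57 ± 0.17 (adjusted p = 0.0243), the second call being lost in 4 of 9 leave-one-out fits. Tyrobp encodes DAP12, the adaptor of the TREM receptors. It was 167, 139 and 133 FPKM in vehicle, 310, 196 and 269 FPKM at 0.1 mg/kg and 153, 192 and 179 FPKM at 1 mg/kg. It passed the test at the low dose and not at the high dose (0.80 ± 0.17, adjusted p = 0.00804, against 0.26 ± 0.17, adjusted p = 0.248), and the difference between the doses (-0.54, adjusted p = 0.241) did not pass.

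**Figure D3:**
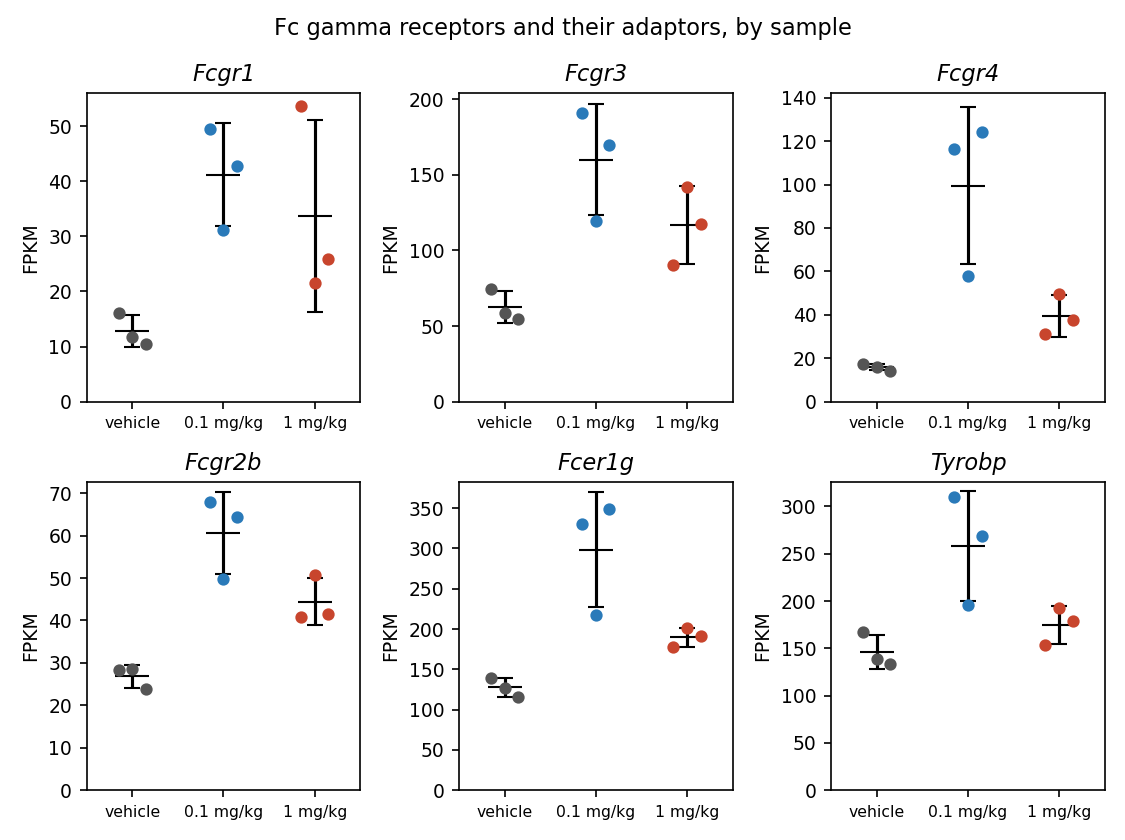
Each panel shows 1 gene, with points for the 3 samples of a group, a long bar for the mean and whiskers for the SD, in FPKM from 0. For Fcgr4 the vehicle samples sit between 14.3 and 17.4, the 1 mg/kg samples between 31.1 and 49.8 and the 0.1 mg/kg samples between 57.8 and 124.

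The balance of activating to inhibitory receptors was computed in each sample. Its absolute size depends on the lengths used for the genes, which do not change between samples. The summed FPKM of Fcgr1, Fcgr3 and Fcgr4 divided by that of Fcgr2b was 3.81, 3.03 and 3.33 in vehicle, 5.26, 4.20 and 5.22 with the low dose and 4.30, 4.20 and 4.35 with the high dose. No digoxin sample reached down to the vehicle range. The log2 difference was 0.53 at 0.1 mg/kg and 0.34 at 1 mg/kg, each with an exact two-sided permutation p of 0.1, which is the smallest that 3 against 3 can give. Between the doses it was -0.18 (exact permutation p = 0.4).

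Fcgr4 to Fcgr2b was 0.616, 0.562 and 0.601 in vehicle, 1.72, 1.16 and 1.93 with the low dose and 0.763, 0.982 and 0.902 with the high dose. The 3 groups were again separate, with log2 differences of 1.40, 0.57 and, between the doses, -0.84 (exact permutation p = 0.1 for each of the 3). Fcgr3 to Fcgr2b overlapped between all groups. Fcgr1 to Fcgr2b was 1.32 in sample 1 at 1 mg/kg, against 0.424 and 0.624 in samples 2 and 3. Sample 2 lay within the vehicle range of 0.41 to 0.57, so the groups overlapped. Over these 5 ratios, including that of Fcgr1 and Fcgr4 together, 15 comparisons were made and none could reach 0.05.

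**Figure D4:**
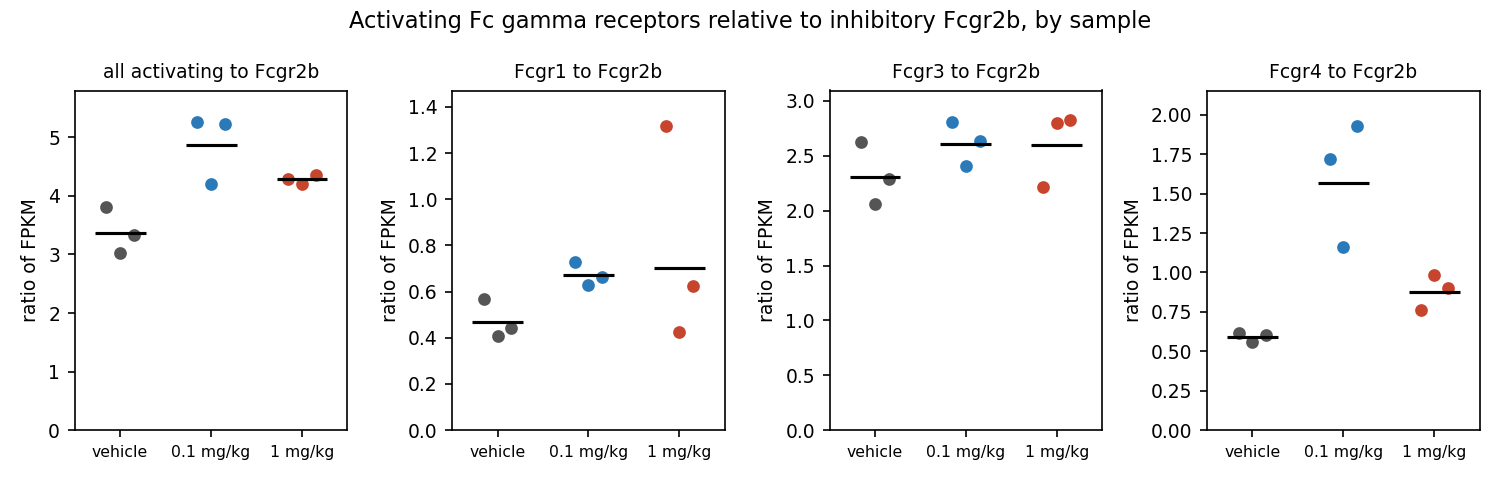
Points are the 3 samples of each group and bars the geometric means of the FPKM ratio to Fcgr2b, for the 3 activating receptors summed and for each alone. In the Fcgr4 panel the groups do not overlap, and in the Fcgr1 panel 1 sample at 1 mg/kg lies at 1.32.

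The 250 bases upstream of the RefSeq start (build GRCm38.p6) were at hand for 27 of the 33 genes and were searched on both strands for 6 short motifs bound by factors of myeloid cells or of the interferon response. TTCNNNGAA, the gamma-activated sequence of the interferon response, occurred in Fcgr1, Trem1 and Ncf1, and in 8.13% of all 27025 symbols. The core of interferon-stimulated response elements, GAAA repeated once with any 2 bases between, occurred in Aif1, Fcgr4, Spp1, Cybb and Ncf1, that is 5 of 27, and in 3.46% of all symbols. GAGGAAGT, a PU.1 site, occurred in Fcgr4 and Spp1 (2.79% of symbols), and TGANTCA, an AP-1 site, in Cd68, Ms4a7, Trem2 and Cybb (7.82%). TCACGTGA and TCATGTGA, sites of the MITF and TFE factors, were in none of the 27 windows (0.907% and 0.984% of symbols). A match is a run of letters and not a site shown to be bound. The windows of the activating receptors with a match are shown because these genes rose at both doses, with the matches in capitals. For Fcgr1, on the minus strand at chr3:96293970-96294219, the capitals are TTCNNNGAA, 109 to 101 bases upstream. For Fcgr4, on the plus strand at chr1:171018676-171018925, they are the GAAA pair, 73 to 64 bases upstream, and GAGGAAGT on the other strand, 24 to 17 bases upstream.
Fcgr1: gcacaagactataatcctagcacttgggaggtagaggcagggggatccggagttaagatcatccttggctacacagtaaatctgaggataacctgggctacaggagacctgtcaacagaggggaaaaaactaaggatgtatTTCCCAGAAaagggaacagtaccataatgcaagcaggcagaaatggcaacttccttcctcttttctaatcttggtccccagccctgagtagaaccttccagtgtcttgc
Fcgr4: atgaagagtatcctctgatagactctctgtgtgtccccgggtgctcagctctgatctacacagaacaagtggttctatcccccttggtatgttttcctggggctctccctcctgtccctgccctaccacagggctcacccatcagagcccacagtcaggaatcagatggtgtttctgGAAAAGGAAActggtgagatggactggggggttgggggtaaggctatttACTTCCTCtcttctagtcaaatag

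The TREM genes did not pass the test at either dose. Trem1, a DAP12-coupled receptor that amplifies inflammation, was 3.79, 3.40 and 1.82 FPKM in vehicle, 5.22, 3.19 and 2.13 FPKM at 0.1 mg/kg and 10.3, 3.77 and 7.40 FPKM at 1 mg/kg. The vehicle and 1 mg/kg values overlap, because sample 2 at 1 mg/kg lies within the vehicle range. Its log2 change at 1 mg/kg was 0.98 ± 0.36 (adjusted p = 0.053). Trem2, the DAP12-coupled lipid receptor, ranged from 7.71 to 12.1 FPKM over the 9 samples, with changes of 0.09 and -0.21 (adjusted p = 0.62 and 0.236). Without sample 1 at 1 mg/kg the Trem2 value at that dose passed the test (lowest adjusted p 0.0274).

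Of the 5 C-type lectins 4 rose at 0.1 mg/kg and 3 rose at 1 mg/kg, where 21.6% and 20.7% of tested genes did. Clec4d, which encodes MCL, was 25.2, 15.6 and 10.3 FPKM in vehicle, 65.7, 35.4 and 33.6 FPKM at 0.1 mg/kg and 92.9, 47.5 and 58.1 FPKM at 1 mg/kg. Clec4e, which encodes its partner Mincle, was 3.68, 1.92 and 1.36 FPKM, 13.6, 3.90 and 4.37 FPKM, and 22.2, 5.77 and 9.25 FPKM in the same order. Digoxin samples exceeded all vehicle samples for both genes, and in both the first sample of each digoxin group was by far the highest. Clec4d rose by 1.36 ± 0.37 (adjusted p = 0.0195) and 1.92 ± 0.37 (adjusted p = 0.00438). Clec4e rose at 1 mg/kg (1.88 ± 0.53, adjusted p = 0.0204) and was at 1.19 ± 0.53 (adjusted p = 0.102) at the low dose. The low-dose call of Clec4d was lost in 3 and the high-dose call of Clec4e in 2 of the 9 leave-one-out fits.

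Clec7a and Clec4n, which encode Dectin-1 and Dectin-2, had their higher mean levels at 0.1 mg/kg. Clec7a was 5.45, 5.03 and 5.60 FPKM in vehicle, 15, 8.16 and 10.2 FPKM at 0.1 mg/kg and 9.76, 3.78 and 4.05 FPKM at 1 mg/kg. Low-dose values lay above the vehicle range, and high-dose values fell on both sides of it. The rise at 0.1 mg/kg was 0.89 ± 0.31 (adjusted p = 0.0457) and was lost in 6 of 9 leave-one-out fits, where the adjusted p reached 0.149. Clec4n rose at 0.1 mg/kg by 0.91 ± 0.21 (adjusted p = 0.0107) and stood at 0.50 ± 0.21 (adjusted p = 0.081) at 1 mg/kg. Mrc1, the mannose receptor CD206, was 29.4, 23.3 and 19.2 FPKM in vehicle, 53.6, 47.0 and 61.4 FPKM at 0.1 mg/kg and 26.6, 63.4 and 51.3 FPKM at 1 mg/kg. Sample 1 at 1 mg/kg lay inside the vehicle range. Mrc1 rose by 1.15 ± 0.29 (adjusted p = 0.0143) and 0.88 ± 0.29 (adjusted p = 0.0353), with the calls lost in 2 and 4 of 9 leave-one-out fits.

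Marco, a scavenger receptor for particles and bacteria, gave the largest changes of the 33 genes. It was 0.384, 0.125 and 0.231 FPKM in vehicle, 10.6, 6.21 and 19.5 FPKM at 0.1 mg/kg and 5.37, 4.55 and 4.51 FPKM at 1 mg/kg. The groups were separate, and every digoxin value was above 4 FPKM. Mean FPKM was 49.1 and 19.5 times the vehicle mean, which rests on the few vehicle reads given above. On the log2(FPKM + 1) scale, which understates changes of low genes, Marco rose by 3.27 ± 0.31 (adjusted p = 0.000415) and 2.22 ± 0.31 (adjusted p = 0.00132).

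Cd36, a fatty acid and oxidised lipoprotein receptor, was 5.79, 4.26 and 3.56 FPKM in vehicle, 10.3, 7.34 and 11.2 FPKM at 0.1 mg/kg and 34.6, 15.8 and 13.2 FPKM at 1 mg/kg. The 3 groups did not overlap and the high dose was highest, the reverse of the order for Fcgr4 and Marco. The rise was 0.94 ± 0.33 (adjusted p = 0.0454) at 0.1 mg/kg, lost in 6 of 9 leave-one-out fits, and 1.90 ± 0.33 (adjusted p = 0.00268) at 1 mg/kg. Cd163, the haemoglobin-haptoglobin receptor, was 1.14, 0.816 and 0.887 FPKM in vehicle, 3.54, 3.62 and 4.00 FPKM at 0.1 mg/kg and 1.64, 12.9 and 8.66 FPKM at 1 mg/kg. Low-dose values were close together, whereas sample 1 at 1 mg/kg was far below the other two of its group. Cd163 rose at 1 mg/kg by 1.87 ± 0.50 (adjusted p = 0.0166), and was at 1.28 ± 0.50 (adjusted p = 0.0681) at 0.1 mg/kg. The low-dose value passed the test with a pseudocount of 0.1, in a fit of only the vehicle and low-dose samples, and without sample 1 or sample 2 at 1 mg/kg (lowest adjusted p 0.000598). The 1 mg/kg call was lost in 3 of 9 leave-one-out fits.

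Msr1, scavenger receptor A, rose at 0.1 mg/kg (0.68 ± 0.19, adjusted p = 0.0223, lost in 4 of 9 leave-one-out fits) and was at 0.46 (adjusted p = 0.0796) at 1 mg/kg. Mertk, a receptor for apoptotic cells, ranged from 3.97 to 7.21 FPKM over all samples and did not pass at either dose (adjusted p = 0.262 and 0.75).

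**Figure D5:**
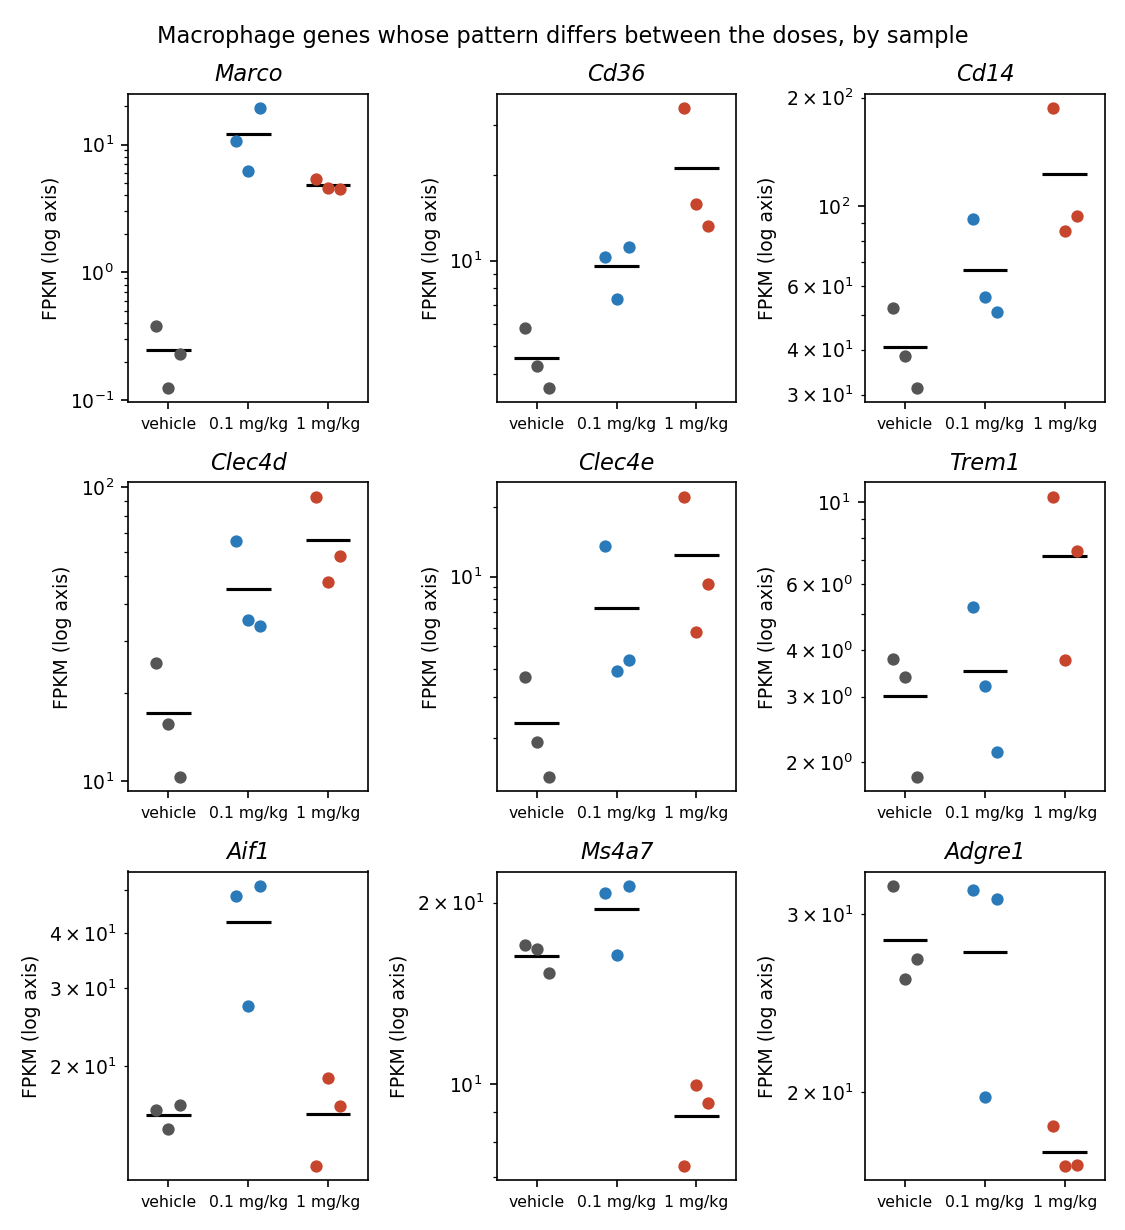
Each panel shows the FPKM of 1 gene on a log axis, with points for the 3 samples of a group and bars for the group mean. Marco is below 1 FPKM in vehicle only, Cd36 is highest at 1 mg/kg, Aif1 is highest at 0.1 mg/kg, and Ms4a7 and Adgre1 are lowest at 1 mg/kg.

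Of the 4 lipid-associated and lysosomal genes 1 rose at 0.1 mg/kg and 2 rose at 1 mg/kg, where 21.6% and 20.7% of tested genes did. Gpnmb, a lysosomal glycoprotein of lipid-laden macrophages, was 9.22, 10.4 and 8.76 FPKM in vehicle, 33.9, 12.4 and 14.4 FPKM at 0.1 mg/kg and 21.3, 28.4 and 29.4 FPKM at 1 mg/kg. All digoxin values were above the vehicle range. Gpnmb rose at 1 mg/kg (1.38 ± 0.32, adjusted p = 0.0088) and was at 0.89 ± 0.32 (adjusted p = 0.0503) at 0.1 mg/kg. Lgmn, the lysosomal protease legumain, rose at both doses (0.51 ± 0.10 and 0.31 ± 0.10, adjusted p = 0.00476 and 0.0282), the second call being lost in 4 of 9 leave-one-out fits.

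Apoe, the lipid carrier apolipoprotein E, was 540, 615 and 555 FPKM in vehicle, 1181, 862 and 1142 FPKM at 0.1 mg/kg and 353, 1049 and 644 FPKM at 1 mg/kg. Low-dose samples were above all vehicle samples, and high-dose samples spread from below to above them. The change was 0.88 ± 0.33 (adjusted p = 0.0593) and 0.12 ± 0.33 (adjusted p = 0.78). In the fits without sample 1 or sample 2 at 1 mg/kg Apoe passed the test at 0.1 mg/kg. Spp1, which encodes osteopontin, ranged from 679 to 1125 FPKM and passed at neither dose (adjusted p = 0.181 and 0.234).

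For the phagocyte oxidase, Cybb encodes the catalytic subunit gp91phox and Ncf1 the cytosolic organiser p47phox. Cybb was 7.53, 8.59 and 10.2 FPKM in vehicle, 19.5, 11.4 and 22.0 FPKM at 0.1 mg/kg and 14.6, 9.85 and 7.04 FPKM at 1 mg/kg. Only the low-dose samples lay above the vehicle range as a group. Cybb rose by 0.89 ± 0.28 (adjusted p = 0.0328) at 0.1 mg/kg and was at 0.19 ± 0.28 (adjusted p = 0.602) at 1 mg/kg. Ncf1 rose at both doses by similar amounts, 0.38 and 0.40 (adjusted p = 0.0408 and 0.0323). These 3 calls were lost in 5, 6 and 5 of 9 leave-one-out fits. Both genes are among the 5 with a GAAA pair, and their upstream windows are shown with matches in capitals. Cybb (minus strand, chrX:9469325-9469574) holds the GAAA pair 3 times, at 168 to 159 and 124 to 115 bases upstream on the other strand and at 29 to 20 bases upstream, and TGANTCA at 139 to 133 bases upstream. In Ncf1 (minus strand, chr5:134229626-134229875) TTCNNNGAA, 88 to 80 bases upstream, overlaps the GAAA pair, 82 to 73 bases upstream, in one run of capitals.
Cybb: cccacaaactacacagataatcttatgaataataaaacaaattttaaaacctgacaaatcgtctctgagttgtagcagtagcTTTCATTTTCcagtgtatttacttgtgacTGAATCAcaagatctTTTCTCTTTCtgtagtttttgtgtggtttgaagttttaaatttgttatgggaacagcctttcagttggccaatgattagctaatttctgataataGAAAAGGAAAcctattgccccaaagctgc
Ncf1: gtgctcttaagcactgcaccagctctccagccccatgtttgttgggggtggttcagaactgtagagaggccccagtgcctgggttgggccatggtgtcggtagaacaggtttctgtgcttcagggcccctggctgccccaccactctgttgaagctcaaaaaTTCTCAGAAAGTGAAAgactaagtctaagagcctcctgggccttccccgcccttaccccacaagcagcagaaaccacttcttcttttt

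The other calls were lost when certain single libraries were left out. At 0.1 mg/kg, leaving out vehicle sample 3 ended the calls of Laptm5, Clec7a, Clec4d, Mrc1, Msr1, Cd36, Cybb and Ncf1 (adjusted p 0.0564 to 0.138). All of these but Mrc1 and Msr1 were also lost without vehicle sample 2 (0.0593 to 0.117). Leaving out vehicle sample 1 ended those of Clec7a, Msr1, Cd36, Cybb and Ncf1 (0.0569 to 0.0981). Without 0.1 mg/kg sample 1 the calls of these 8 genes other than Mrc1 were lost (0.0672 to 0.149), and without 0.1 mg/kg sample 3 those other than Clec4d (0.0544 to 0.136). Leaving out 1 mg/kg sample 2 ended the calls of Cd36 and Ncf1 (0.0508 to 0.052), and 1 mg/kg sample 3 that of Clec7a (0.0507).

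At 1 mg/kg, leaving out vehicle sample 3 ended the calls of Csf1r, Cd68, Ms4a6c, Fcgr1, Fcer1g, Clec4e, Mrc1, Cd163, Lgmn and Ncf1 (adjusted p 0.0517 to 0.117). All of these but Cd68, Ms4a6c and Fcgr1 were also lost without vehicle sample 2 (0.0526 to 0.119). Without 1 mg/kg sample 2 the calls of Ms4a6c, Fcer1g, Mrc1, Lgmn and Ncf1 were lost (0.0606 to 0.111), and without 1 mg/kg sample 3 those of Csf1r, Fcer1g, Mrc1, Cd163 and Lgmn (0.0582 to 0.145). Csf1r and Ncf1 also lost theirs without vehicle sample 1 (0.0611 to 0.103) or 1 mg/kg sample 1 (0.0721 to 0.105). Csf1r did so without 0.1 mg/kg sample 1 (0.0549) or sample 3 (0.0517) as well.

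When the doses were compared with each other, 0 of the 33 genes passed the limma test, as against 0.0146% of tested genes (2 genes). At an unadjusted p under 0.05 there were 17 of 33 (13.6% of tested genes). The median log2 change from 0.1 to 1 mg/kg was -0.30, and -0.05 over all tested genes. At 1 mg/kg all values were below those at 0.1 mg/kg for 9 genes (11% of tested genes), namely Adgre1, Csf1r, Ms4a7, Aif1, Fcgr4, Fcer1g, Tyrobp, Marco and Lgmn. They were above for Cd36 alone (6.05% of tested genes). The largest differences were those of Aif1 (-1.36 ± 0.24, adjusted p = 0.0953), Fcgr4 (-1.26 ± 0.28, adjusted p = 0.127), Ms4a7 (-1.06 ± 0.13, adjusted p = 0.0796) and Marco (-1.05 ± 0.31, adjusted p = 0.214).

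The next counts leave out libraries picked because they lie between the groups, which by itself widens the distance between the groups, so they are a description and not support for a difference. Without sample 1 at 1 mg/kg alone, 0 genes were called. Without sample 2 at 0.1 mg/kg, 7 genes were lower at 1 mg/kg, where 0.972% of tested genes were called. They were Adgre1, Aif1, Csf1r, Fcer1g, Fcgr4, Marco and Ms4a7. Without it and sample 1 at 1 mg/kg, 12 were lower and Cd163 was higher, where 3.4% of tested genes were called. The 5 added were Clec4n, Clec7a, Cybb, Fcgr1 and Tyrobp. Against vehicle, the fit without both libraries called 27 genes higher at 0.1 mg/kg, and 21 higher and 4 lower at 1 mg/kg. Of all 13687 tested genes it called 4371 higher at 0.1 mg/kg, and 4298 higher and 4094 lower at 1 mg/kg. In either direction these fits called 61.5% and 61.3% of tested genes. The 3 comparisons share samples, so their calls are not independent of each other.

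Set against Csf1r in the same library, 22 of the other 32 genes were higher in all low-dose than in all vehicle samples (22.5% of tested genes) and 2, Adgre1 and Lyz2, were lower (21.1%). The high dose had 25 higher (48.6%) and Ms4a7 was lower (9.69%). Csf1r itself was lower at that dose. Set against Ptprc, which encodes the pan-leukocyte protein CD45, 23 of 33 were higher at 0.1 mg/kg (20.6%) and 0 lower (16.8%), and 20 were higher at 1 mg/kg (32.7%) and 2, Adgre1 and Ms4a7, lower (16.2%). Relative to Csf1r, Fcgr4 was higher by 2.41 on the log2 scale at 0.1 mg/kg and by 1.70 at 1 mg/kg. From 0.1 to 1 mg/kg, levels relative to Csf1r were higher for 8 of 32 genes (34.8%) and lower for Ms4a7, Aif1 and Fcgr4 (0.862%), and levels relative to Ptprc were higher for 5 of 33 (14.8%) and lower for 5, Adgre1, Ms4a7, Aif1, Fcgr4 and Marco (1.04%). The exact permutation p was 0.1 for each of these non-overlapping values, the smallest possible, and 0.133 at the low and 0.123 at the high dose for the ratios to Csf1r after Benjamini-Hochberg adjustment over the 32 genes, given as a description.

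Genes that act below or beside these receptors were counted over whole lists. Of 29 signalling genes of the Fc receptor, TREM and lectin routes, 15 rose and 1 fell at 0.1 mg/kg (median log2 change 0.55), and 7 rose and 4 fell at 1 mg/kg (median 0.22). Here and for the lists that follow, the shares over all tested genes are 21.6% higher and 20.7% lower at 0.1 mg/kg, and 20.7% higher and 25.2% lower at 1 mg/kg. Pirb, a paired inhibitory receptor, rose by 1.14 and 0.97 (adjusted p = 0.00104 and 0.00152), and Bcl10, a scaffold of the lectin route, by 0.56 and 0.69 (adjusted p = 0.00267 and 0.001). Plcg2, a phospholipase activated below SYK, fell by 0.42 and 0.85 (adjusted p = 0.0365 and 0.00214). Of 7 further oxidase genes, 6 were tested. At 0.1 mg/kg 4 rose, among them Ncf4, Rac2 and Cyba (by 0.63, 0.82 and 0.55), and Rac1 and Cybc1 fell. At 1 mg/kg 0 rose and Cybc1, a chaperone of gp91phox, fell by 0.52 (adjusted p = 0.00439).

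Of 15 CSF receptor, ligand and macrophage transcription factor genes, 10 rose and 0 fell at 0.1 mg/kg, and 9 rose and 1 fell at 1 mg/kg. Csf1, a ligand of the CSF1 receptor, was at 0.34 (adjusted p = 0.0611) at 0.1 mg/kg and rose by 0.72 (adjusted p = 0.00303) at 1 mg/kg, where Il34, the other ligand, fell by 0.49 (adjusted p = 0.0176). Cebpb, a factor of inflammatory myeloid cells, rose by 1.05 and 1.67 (adjusted p = 0.00662 and 0.000996). Irf8, a factor of the monocyte lineage, rose by 0.74 at the low dose (adjusted p = 0.00405) and was at 0.12 (adjusted p = 0.474) at the high dose.

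Among 8 tested of 11 further myeloid lectins, 6 rose and 1 fell at 0.1 mg/kg, and 3 rose and 1 fell at 1 mg/kg. Clec4a1 rose by 1.37 and 0.93, while Clec9a, a dendritic cell receptor for dead cells, fell by 1.92 and 2.28 (adjusted p = 0.00417 and 0.00182). Of 17 tested of 21 other uptake genes, 4 rose and 7 fell at 0.1 mg/kg, and 3 rose and 6 fell at 1 mg/kg, so the numbers that rose are near the share over all tested genes. Itgam, which encodes the complement receptor chain CD11b, rose by 1.35 and 1.25, whereas Axl, a receptor for apoptotic cells, fell by 0.51 and 0.29. Of 15 tested of 16 lipid-associated macrophage genes, 5 rose and 1 fell at 0.1 mg/kg, and 7 rose and 1 fell at 1 mg/kg. Lgals3, which encodes galectin-3, rose by 1.26 and 1.5.

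Other cell types that express some of these genes were measured by marker lists. No list was made for the LLC tumour cells, and their part in the values of the 33 genes was not tested. Neutrophils carry Fcgr3, Fcgr4, Trem1, Clec4d and Clec4e. Of 15 neutrophil markers 8 were called higher at the low dose and 13 at the high dose, with a summed level of 87.1 to 232 FPKM in vehicle, 174 to 932 FPKM at 0.1 mg/kg and 572 to 1314 FPKM at 1 mg/kg. The marker Ly6g was at 0 in at least 1 library. By sample the sum was 232, 111 and 87.1 FPKM in vehicle, 932, 314.5 and 174 FPKM at 0.1 mg/kg and 572, 737 and 1314 FPKM at 1 mg/kg. In vehicle and at 0.1 mg/kg the samples stood in the same order for this sum as for Trem1 and Clec4d, and in vehicle also for Clec4e, Fcgr3 and Fcgr4. The vehicle order was not particular to these genes. Vehicle sample 1 was highest of its group for 22 of the 33 genes and sample 3 lowest for 24. Sample 3 at 0.1 mg/kg had the lowest sum and the highest Fcgr4 of its group. Sample 1 at 1 mg/kg had the lowest sum and the highest Trem1, Clec4d and Clec4e. The part of neutrophils in the values of these 5 genes, or of any other of the 33 genes, was not tested.

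For Fcer1g, mast cells are another source. The summed level of 7 mast cell markers was 20.3 to 25.0 FPKM in vehicle, 35.3 to 58.2 FPKM at 0.1 mg/kg and 9.75 to 82.7 FPKM at 1 mg/kg, with none called among the 5 tested. Natural killer cells carry Fcgr3, Fcer1g and Tyrobp, and their 7 markers summed to 9.55 to 10.0, 9.20 to 11.9 and 5.93 to 13.6 FPKM, with 1 of 2 tested genes called at each dose. B cells carry Fcgr2b. Their 6 markers summed to 1.85 to 2.24 FPKM in vehicle, 11.4 to 14.2 FPKM at 0.1 mg/kg and 3.84 to 15.9 FPKM at 1 mg/kg, and 2 of 3 tested genes rose at each dose. The part of these cells was not tested.

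Cd36 is also made by fat, muscle and endothelium. Over the groups the sum of 7 adipocyte markers was 5.40 to 9.40, 15.4 to 43.7 and 6.03 to 24.7 FPKM (0 of 2 tested genes called at either dose, with Lep at 0 in at least 1 library). The sum of 9 skeletal muscle markers was 52.4 to 123, 193 to 369 and 90.5 to 1195 FPKM (4 of 9 genes higher at each dose), and that of 7 endothelial markers 36.3 to 47.6, 34.2 to 51.5 and 22.1 to 61.1 FPKM (0 of 7 called). At 0.1 mg/kg the samples stood in the same order for Cd36 as for the muscle and endothelial sums, with sample 3 highest and sample 2 lowest. Sample 1 at 1 mg/kg had the highest Cd36 and, for all 3 lists, the lowest sum of its group. The part of these tissues in Cd36 was not tested.

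Macrophages, their precursors and leukocytes as a whole were measured in the same way. Resident-type macrophage markers summed to 1145 to 1281 FPKM in vehicle, 1660 to 2427 FPKM at 0.1 mg/kg and 980 to 1815 FPKM at 1 mg/kg. Of 9 tested of these 10 genes 2 rose and 1, Cx3cr1, fell at each dose. The 9 monocyte markers summed to 399 to 468, 336 to 414 and 389 to 407 FPKM, with 6 higher and 3 lower at 0.1 mg/kg and 6 higher and 2 lower at 1 mg/kg. Most of that sum was the marker Fn1, which was among those that fell, with means of 345, 228 and 218 FPKM. The monocyte sum therefore mainly follows Fn1 and hides the markers that rose. Over 6 pan-leukocyte genes the sum was 243 to 284 FPKM in vehicle, 297 to 451 FPKM at 0.1 mg/kg and 287 to 311 FPKM at 1 mg/kg, with 3 and 1 genes higher. The part of leukocyte number in the changes of the 33 genes was not tested.

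The other 5 lists are given by their ranges in vehicle, 0.1 mg/kg and 1 mg/kg samples and by their calls against vehicle. The 9 T cell markers summed to 19.45 to 24.7 FPKM in vehicle, 41.5 to 70.9 FPKM at 0.1 mg/kg and 8.37 to 28.9 FPKM at 1 mg/kg, with 6 of 7 tested genes higher at the low dose and 1 lower at the high dose. The 10 dendritic cell markers summed to 144 to 172, 124 to 175 and 122 to 128 FPKM (of 5 tested, 2 higher and 1 lower, then 1 lower). Most of that sum was Fscn1, with means of 136, 126 and 115 FPKM and no call at either dose. For 6 osteoclast markers the sum was 36.4 to 44.4, 19.7 to 45.15 and 17.9 to 20.9 FPKM (of 4 tested, 0 called, then 3 lower), with Dcstamp and Calcr at 0 in at least 1 library. For 7 fibroblast markers it was 975 to 1091, 331 to 678 and 347 to 594 FPKM (2 higher and 3 lower, then 1 higher and 4 lower), and for 5 erythroid genes 134 to 325, 261 to 1394 and 370.5 to 631 FPKM (1 higher at each dose). Their part in the results was not tested.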

How the data were processed

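Poly(A) RNA-seq of 9 tumour samples was deposited as one table of FPKM per gene. Per the submitters' processing notes, reads were handled with fastp 0.22.0 and HISAT2 2.2.1, and the build named there is a human one, although the gene symbols are those of mouse. For the counting program and annotation the sources used here name none, so the FPKM are taken as the authors deposited them.

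The 13687 genes that had 1 FPKM or more in 3 libraries or more were tested with limma 3.58.1 (R 4.3.3) on log2(FPKM + 1), with 1 mean per group over all 9 libraries, a trend of variance on mean, and p-values adjusted over these genes by Benjamini-Hochberg (threshold 0.05). Ratios were compared by exact permutation over samples. The spacing of the FPKM values gave each library's denominator and whole reads for 33 of 33 genes (within 0.03 of a read), without strand. From 3 to 29 lengths fitted a gene and the smallest was taken, so the reads are the lowest numbers that fit. The fit was first tested on simulated data with known changes. The simulated noise was independent between genes and far fewer genes changed than were called here. That test therefore does not show how reliable the calls above are. All 33 genes are named. Of the pathway lists, which were counted whole, up to 4 genes with the smallest p are named (some are not reported here); of the marker lists, summed levels are given. The 33 genes, the lists and the alternatives were chosen with earlier results of these data known. Upstream windows are RefSeq sequences of GRCm38.p6. The alternatives were another pseudocount, other filters and scalings, a replicate block, no trend, a fit of 2 groups and leaving out libraries.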

Additional observations from a re-analysis of the deposited data

How the results depend on the processing

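Leaving out 1 library gave 12 to 24 genes higher at 0.1 mg/kg, 8 to 19 higher at 1 mg/kg, and 0 to 7 lower between the doses. Of all 13687 tested genes the same fits called 1803 to 3805 higher, 1888 to 3849 higher and 0 to 122 lower. No filter on low values gave 13 higher at 0.1 mg/kg (2612 of all 35321 genes), with more genes in the adjustment. Without both libraries between the groups, 12 genes were lower and 1 higher at 1 mg/kg than at 0.1 mg/kg. With Fcgr1 as the only activating receptor, the ratio to Fcgr2b between the doses was 0.065 on the log2 scale in place of -0.18; sample 1 at 1 mg/kg holds the highest Fcgr1. Rescaling to TPM moved the median of all genes to -0.09 and -0.12 on the log2 scale, and the split of all calls at 0.1 mg/kg from 2952 higher and 2829 lower to 2368 and 3790 (quantile normalisation, 2403 and 3552). Under TPM 16 of the 33 genes were called higher at the low dose and 15 at the high dose (2447 of all 13687 tested genes at the high dose), tested against no change.

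Same-numbered deviations correlated at 0.193, 0.132 and 0.0908 for 0.1 mg/kg with vehicle, above those of different number (-0.135 to 0.0357). For 1 mg/kg with vehicle they were 0.00057, -0.0587 and -0.00619 (different number, -0.099 to 0.146). For 1 with 0.1 mg/kg they were -0.244, -0.441 and 0.279 (different number, -0.475 to 0.52). These values do not settle whether replicate numbers pair the samples. A fit with the replicate block called 20 genes higher at 0.1 mg/kg, 16 higher and 2 lower at 1 mg/kg and 0 between the doses (4967, 5541 and 0 of all genes). With the block, at 0.1 mg/kg the calls of Cybb and Ncf1 were lost and those of Cd14 and Clec4e gained. The block at 1 mg/kg ended those of Csf1r, Mrc1 and Lgmn and added that of Trem1.

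In these alternatives signs turned only in genes that were not called. At 0.1 mg/kg, leaving out 1 library gave Adgre1 -0.18 to 0.15 and Trem1 -0.11 to 0.39, and Adgre1 was 0.15 without both libraries between the groups. Trem2 was -0.018 under TPM. At 1 mg/kg the same ranges were -0.15 to 0.16 for Aif1, -0.37 to 0.21 for Clec7a, -0.30 to 0.066 for Mertk, -0.26 to 0.53 for Apoe and -0.057 to 0.42 for Cybb. Without both libraries Aif1 was 0.16, Clec7a -0.37, Mertk 0.066 and Cybb -0.057. Clec7a was -0.0101 with a pseudocount of 0.1 and -0.0864 under TPM, and Apoe -0.024 after quantile normalisation. Between the doses, leaving out 1 library gave -0.53 to 0.0855 for Mrc1, -0.20 to 0.14 for Spp1 and -0.10 to 0.14 for Ncf1. Without both, Clec4e was -0.088, Spp1 0.16 and Ncf1 -0.17. The causes were not tested. Marco in vehicle had the fewest reads.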
